A study of Mus musculus with 12 samples.

Results

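Described here are 10 genes of BMP and activin signalling in HL-1 cells, which come from mouse atrial cardiomyocytes, after CRISPR targeting of Wdr62. They were taken by symbol from a deposited expression table of 23184 genes, and all 10 have a row. They are the BMP ligand genes Bmp2, Bmp4 and Bmp5, the activin A subunit gene Inhba, the TGF-beta ligand gene Tgfb2, the secreted inhibitor genes Fst and Grem1, and the target genes Id1, Id2 and Id3. RNA was sequenced from 12 libraries in 3 groups of 4. Control cells (CON, genotype label WT) stably carried the empty vectors lentiCRISPRv2 and pCDH. KD cells (genotype WDR62-) received a virus with a guide RNA to Wdr62. RE cells (genotype WDR62+) were made from KD cells with a second virus, pCDH-WDR62-WT-flag. All cells grew in medium with serum. The labels name pCDH for CON and RE but not for KD. They count Cas9 up to Cas12 over the KD libraries and WDR62 up to WDR65 over the RE libraries, so titles and genotypes were followed. The labels do not say whether KD is 1 clone or a pool.

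BMPs, activins and TGF-betas are secreted dimers that bind pairs of serine/threonine kinase receptors, which phosphorylate Smad transcription factors. BMP receptors act mainly through Smad1, Smad5 and Smad9, and activin and TGF-beta receptors through Smad2 and Smad3. The inhibitor proteins bind ligands outside the cell, and the Id genes are direct BMP-Smad targets in many cell types. Id proteins lack a DNA-binding region and hold bHLH factors, such as the E proteins, away from DNA. In the developing heart BMP signalling supports the cardiac fate, and Bmp4 and Bmp2 take part in forming the valves.

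All values are TPM, transcripts per 1000000 with transcript length divided out. This allows only a rough comparison of levels between genes, because libraries still differed in their level of long transcripts, as given below. Each column of the table sums to 1000000, and sequencing depth is therefore unknown. Wdr62 itself stood at 3.38 to 7.45 TPM in CON, 0.881 to 1.40 in KD and 0.772 to 1.99 in RE, and was lower in KD (adjusted p = 0.000921) and in RE (0.00147) than in CON. RE did not differ from KD by the test (0.05 on the log2 scale, adjusted p = 0.895), and the labels do not give the species of the WDR62 construct, so its part in this value cannot be told. Of 17 atrial heart muscle markers 6 had a mean of at least 1 TPM, and Myl7, Actc1 and Actn2 were listed at 0 in all 12 libraries. Nppa, the atrial hormone gene, had a mean of 0.0907 TPM. The others above 1 TPM included Tnnt2 (18.9 TPM), Nkx2-5 (11.9), Gata4 (7.19) and Myl4 (4.17), so part of the markers of the labelled cell type was present and several defining ones were at or near 0. Nkx2-5, a cardiac transcription factor gene, was higher in KD (12.1 TPM) and in RE (18.4) than in CON (5.31), the only one of the 6 tested that changed in either comparison. The 17 genes sum to 569 to 776 TPM in CON, 765 to 990 in KD and 464 to 788 in RE, most of it Gja1 (mean 680 TPM), which many cell types express. Libraries also differed in their level of long transcripts, taken over the 2269 tested genes whose annotated length is 5032 bases or more. On the log2 scale these genes deviated from their own means by a median of -0.996 in RE 3, -0.83 in CON 4, -0.73 in RE 1 and -0.21 in KD 3, against -0.13 to 0.72 in the other 8.

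The 10 genes ranged widely in level in CON. Grem1, for the BMP inhibitor gremlin 1, had the highest level at 638 ± 381 TPM (SD, n = 4), above 99.1% of the genes in the table. Id1 followed at 203 ± 84.4, Id3 at 105 ± 91.4, Bmp4 at 99.4 ± 8.55, Inhba at 41.6 ± 27.1, Bmp5 at 14.5 ± 8.05, Id2 at 10.3 ± 4.14, Fst at 8.96 ± 0.884 and Tgfb2 at 5.44 ± 1.45 TPM. Among neighbours in this order Id3 and Bmp4, Bmp5 and Id2, and Id2 and Fst differed by less than the larger of their SDs, and Inhba and Bmp5 by about as much. Bmp2 was listed at 0 in every library and enters no test. The other 9 genes passed the minimum mean of 1 TPM and were tested with 11774 genes in 1 limma fit on log2(TPM + 1), a scale that understates changes of low genes. A gene is called changed where its adjusted p is below 0.05. Bulk RNA cannot tell fewer expressing cells from less RNA per cell.

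**Figure D1:**
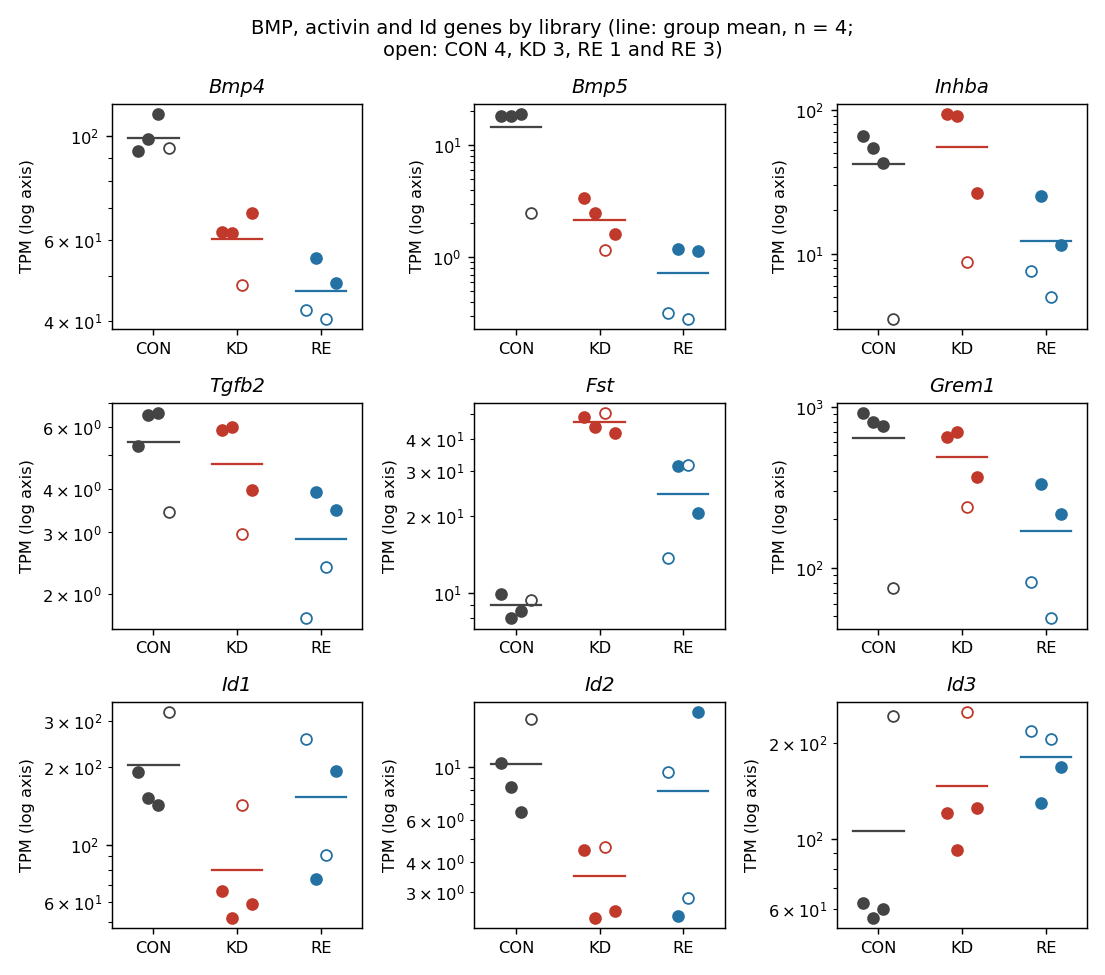
TPM on a log axis in each of the 12 libraries for the 9 genes above 0, with 4 points and a line at the mean for each of CON, KD and RE; open circles mark CON 4, KD 3, RE 1 and RE 3, the 4 libraries lowest in long transcripts. Fst separates the 3 groups, Bmp4 separates CON from KD and RE, and in Inhba, Grem1 and Id3 CON 4 lies far from the other CON libraries.

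KD was compared with CON for what follows when Wdr62 is targeted. The BMP ligand genes Bmp4 and Bmp5 fell, and Fst, for the activin-binding protein follistatin, rose. These are 3 of the 9 tested genes, 1 higher and 2 lower. Of all tested genes 10.2% changed, 6.60% higher and 3.61% lower. The median log2 fold change was -0.18 over the 9 genes and -0.01 over all tested genes. In 3 of the 9 (Bmp4, Fst and Id2) the KD and CON libraries did not overlap, as in 18.9% of all tested genes.

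Bmp4 encodes a BMP ligand with broad roles in heart and mesoderm formation. It stood at 92.9, 98.5, 111.8 and 94.5 TPM in CON, at 62.4, 61.9, 47.8 and 68.6 TPM in KD and at 42.4, 54.9, 40.5 and 48.4 TPM in RE. Every CON library lay above every KD and RE library, whereas KD and RE overlapped. The log2 fold change was -0.72 ± 0.15 (SE, adjusted p = 0.00844) in KD against CON and -1.09 ± 0.15 (adjusted p = 0.000735) in RE against CON. Both calls held under all 21 alternatives run for each, with log2 fold changes of -0.79 to -0.62 and of -1.17 to -0.78.

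Bmp5, a further BMP ligand gene, was uniform in 3 CON libraries and low in the fourth. The CON values were 18.3, 18.3, 19.0 and 2.46 TPM, the KD values 3.37, 2.46, 1.15 and 1.62 TPM, and the RE values 0.315, 1.19, 0.281 and 1.14 TPM. CON 4 therefore lay within the KD range and above every RE library. On the log2 scale KD differed from CON by -2.06 ± 0.51 (adjusted p = 0.0217) and RE from CON by -2.92 ± 0.51 (adjusted p = 0.00393). Without CON 4 the KD value was -2.68 (adjusted p = 4.65e-05). That call did not survive leaving out CON 1 (adjusted p = 0.0711), CON 2 (0.0708), CON 3 (0.0723), KD 2 (0.0512), KD 3 (0.0528) or KD 4 (0.0651), and in the fit of CON and KD alone (0.0523). The RE call held under all 21 alternatives.

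The starts of these 2 ligand genes are shown because both fell in KD and RE. Each is the RefSeq promoter, 250 bases before to 50 after the gene start, on GRCm38.p6, written 5′ to 3′ on the strand of the gene. Capitals mark GGCGCC, the GC-rich element bound by Smads of the BMP branch, and CAGAC, the Smad box, searched on both strands (CAGAC also reads GTCTG). Bmp4 is at chr14:46390620-46390919 on the minus strand and Bmp5 at chr9:75775115-75775414 on the plus strand.
Bmp4: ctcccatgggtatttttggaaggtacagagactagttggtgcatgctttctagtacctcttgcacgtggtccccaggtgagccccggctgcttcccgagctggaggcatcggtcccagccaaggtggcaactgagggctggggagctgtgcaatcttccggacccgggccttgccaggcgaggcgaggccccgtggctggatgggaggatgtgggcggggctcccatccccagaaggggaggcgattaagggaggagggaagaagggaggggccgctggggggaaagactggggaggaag
Bmp5: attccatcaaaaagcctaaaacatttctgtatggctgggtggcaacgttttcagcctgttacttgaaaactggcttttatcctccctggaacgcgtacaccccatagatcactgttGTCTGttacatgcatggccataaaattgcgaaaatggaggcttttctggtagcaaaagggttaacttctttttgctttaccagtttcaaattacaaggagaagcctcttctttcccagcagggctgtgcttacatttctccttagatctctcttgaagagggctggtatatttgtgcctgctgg
The Bmp4 window holds 64% G and C and neither motif, and the Bmp5 window holds 43.3% G and C and 1 Smad box. Of all 32851 promoters given by RefSeq, 11.9% hold GGCGCC and 49.6% hold CAGAC. Matches are descriptions of the letters only. Promoters of 7 of the 10 genes were at hand, without Bmp2, Fst and Id1.

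Fst was the only one of the 9 tested genes that rose. CON held 9.92, 7.96, 8.52 and 9.43 TPM, KD 48.6, 44.5, 50.3 and 42.2 TPM, and RE 13.8, 31.4, 31.7 and 20.5 TPM. Every RE library lay above every CON library and below every KD library. Log2 fold changes were 2.25 ± 0.24 (adjusted p = 7.8e-05) in KD against CON and 1.28 ± 0.24 (adjusted p = 0.00609) in RE against CON, and both calls held under all 21 alternatives. In RE against KD it was -0.97 ± 0.24 with an adjusted p of 0.0695. That value passed the threshold without CON 4 (adjusted p = 0.0324) and without RE 2 (0.0386). Of all tested genes 1.15% (135) kept all 3 groups apart and 0.679% (80) did so with RE in between, and Fst was the only one of the 9 in either set.

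Inhba and Fst encode an activin subunit and its main inhibitor, and only Fst passed the test. Inhba, whose product dimerises to activin A, stood at 65.8, 54.4, 42.8 and 3.51 TPM in CON, 93.3, 90.6, 8.70 and 26.2 TPM in KD, and 7.53, 25.2, 5.03 and 11.4 TPM in RE. The spread within CON and within KD was larger than the difference between their means, and the groups overlapped. For Inhba the log2 fold change was 0.41 with a 95% interval of -1.57 to 2.39 in KD against CON (adjusted p = 0.871), -1.36 (-3.34 to 0.62) in RE against CON (0.295) and -1.77 (-3.75 to 0.21) in RE against KD (0.204). Without CON 4 the KD value turned to -0.49 (adjusted p = 0.636), and RE against CON became -2.26 (adjusted p = 0.0198).

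Grem1 encodes a secreted protein that binds BMP2, BMP4 and BMP7. It stood at 912, 804, 762 and 75.1 TPM in CON, at 646, 700.3, 239 and 364 TPM in KD, and at 81.4, 331, 48.5 and 215 TPM in RE. CON 1, CON 2 and CON 3 lay above every KD library, and CON 4 below them all. Log2 fold changes were -0.03 ± 0.80 in KD against CON (adjusted p = 0.992), -1.80 ± 0.80 in RE against CON (0.167) and -1.77 ± 0.80 in RE against KD (0.175). Without CON 4 it was -0.89 (adjusted p = 0.269), -2.66 (0.00383) and -1.77 (0.0395), so that Grem1 was then lower in RE than in either group. Without CON 4, RE 1 and RE 3, all of which were low in long transcripts, it was -0.89 (adjusted p = 0.0613), -1.62 (0.0178) and -0.74 (0.287).

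Tgfb2, for a TGF-beta isoform that acts in valve formation, was the lowest of the 9 genes in CON. It was at 5.29, 6.47, 6.56 and 3.44 TPM in CON, 5.89, 5.98, 2.97 and 3.96 TPM in KD, and 1.71, 3.90, 2.40 and 3.47 TPM in RE. All 3 groups overlapped. For Tgfb2 the log2 fold change was -0.18 ± 0.27 in KD against CON (adjusted p = 0.781), -0.74 ± 0.27 in RE against CON (0.122) and -0.56 ± 0.27 in RE against KD (0.188). Without CON 4 the RE against CON value was -0.91 (adjusted p = 0.0130).

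**Figure D2:**
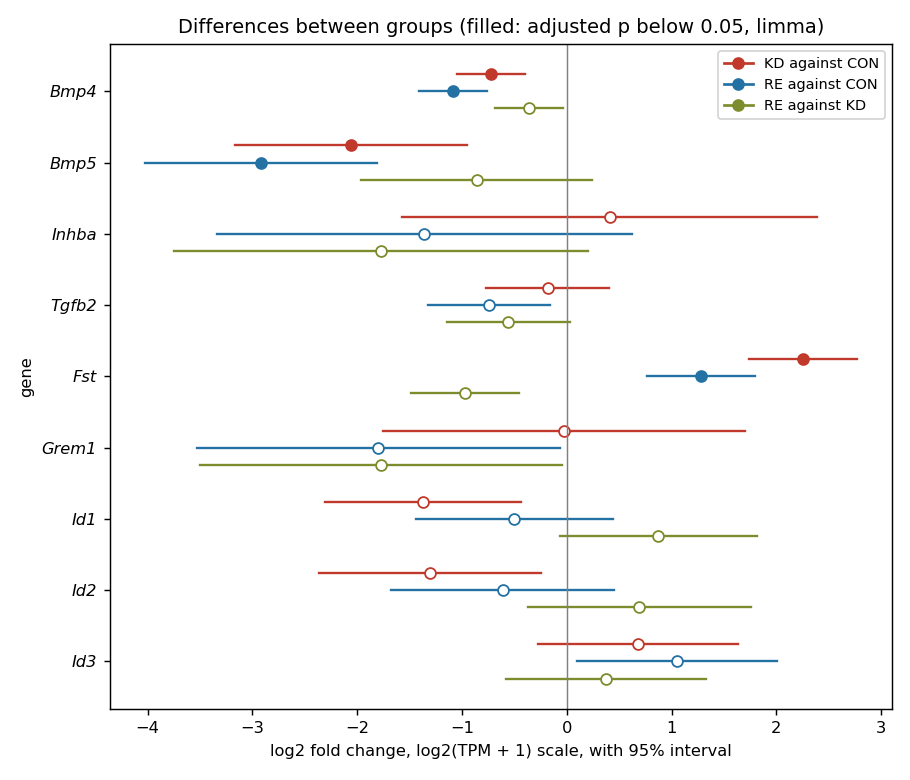
Log2 fold change on the log2(TPM + 1) scale with its 95% interval for the 9 tested genes in KD against CON (red), RE against CON (blue) and RE against KD (green); filled points have an adjusted p below 0.05. Bmp4 and Bmp5 lie below 0 and Fst above 0 in both comparisons with CON, and the intervals of Inhba and Grem1 are the widest.

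The 3 Id genes did not follow one pattern. Id1 stood at 191, 152, 142 and 325 TPM in CON, 66.0, 52.1, 142 and 58.7 TPM in KD, and 257, 73.4, 91.4 and 193 TPM in RE. KD 3 reached the level of CON 3, and RE overlapped both other groups. The log2 fold change in KD against CON was -1.37 ± 0.43, and its adjusted p of 0.0646 did not pass. It passed without KD 3 (-1.69, adjusted p = 0.0249), with a trend on transcript length subtracted from each library (-1.32, 0.0262), with quantile normalization (-1.39, 0.0487), in the fit of CON and KD alone (0.0436) and without CON 4, RE 1 and RE 3 (-1.12, 0.0402). In RE against CON it was -0.50 ± 0.43 (adjusted p = 0.404), and in RE against KD 0.87 ± 0.43 (0.192).

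Id2 was the least abundant of the 3. Its values were 10.5, 8.26, 6.50 and 16.0 TPM in CON, 4.51, 2.34, 4.65 and 2.49 TPM in KD, and 9.58, 2.38, 2.84 and 17.0 TPM in RE. CON and KD did not overlap, with CON higher. RE 2 and RE 3 were in the KD range, RE 1 in the CON range and RE 4 above it. The log2 fold change in KD against CON was -1.31 ± 0.49 (adjusted p = 0.120), which passed only in the fit of CON and KD alone (0.0279) among the 21 alternatives. In RE against KD it was 0.69 ± 0.49 (adjusted p = 0.315), and in RE against CON -0.61 ± 0.49 (0.369).

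Every KD and RE value of Id3 was above CON 1 to CON 3. It stood at 62.9, 56.4, 59.9 and 242 TPM in CON, 120.4, 91.8, 249 and 125 TPM in KD, and 218, 129, 205 and 168 TPM in RE. CON 4 was above every KD and RE library but KD 3. The log2 fold change was 0.68 ± 0.44 in KD against CON (adjusted p = 0.410), 1.05 ± 0.44 in RE against CON (0.155) and 0.37 ± 0.44 in RE against KD (0.545). Without CON 4 it was 1.18 (adjusted p = 0.0139) in KD against CON and 1.55 (0.00223) in RE against CON, and without CON 4, RE 1 and RE 3 1.18 (0.00878) and 1.29 (0.0201).

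The promoters of Id2 and Id3 are shown because the Id genes are the BMP-Smad targets among the 10. In KD against CON these 2 had fold changes of opposite sign. Neither passed in limma (adjusted p = 0.120 for Id2 and 0.410 for Id3). Build, window and capitals are as for the ligand genes. Id2 is at chr12:25096043-25096342 on the minus strand and Id3 at chr4:136143572-136143871 on the plus strand. Both windows lie inside the GENCODE M21 gene spans, 25093799 to 25097140 for Id2 and 136143497 to 136145755 for Id3. The RefSeq starts used thus differ from the GENCODE gene starts, and the windows are not upstream of the latter.
Id2: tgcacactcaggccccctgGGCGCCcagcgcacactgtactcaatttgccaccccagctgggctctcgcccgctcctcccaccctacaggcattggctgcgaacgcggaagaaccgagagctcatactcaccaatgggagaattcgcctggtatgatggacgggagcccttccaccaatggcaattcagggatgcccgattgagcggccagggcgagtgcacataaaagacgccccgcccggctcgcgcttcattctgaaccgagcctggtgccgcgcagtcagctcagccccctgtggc
Id3: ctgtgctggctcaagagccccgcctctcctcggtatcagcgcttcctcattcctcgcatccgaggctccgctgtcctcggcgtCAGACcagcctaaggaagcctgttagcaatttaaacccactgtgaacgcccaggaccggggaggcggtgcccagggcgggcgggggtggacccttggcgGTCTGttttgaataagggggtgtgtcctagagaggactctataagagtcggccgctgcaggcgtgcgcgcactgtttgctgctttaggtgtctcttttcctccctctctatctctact
The Id2 window holds 1 GGCGCC and no CAGAC, and the Id3 window holds 2 CAGAC and no GGCGCC. Smad elements outside these 300 bases were not searched.

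RE was compared with KD for what differs after the second virus, pCDH-WDR62-WT-flag. Wdr62 itself did not differ between RE and KD by the test, as given above. None of the 9 tested genes changed in limma, against 1.04% of all tested genes (0.187% higher and 0.858% lower). At an unadjusted p below 0.05 in limma there were 3, Bmp4, Fst and Grem1, beside 3298 of all 11774 tested genes. All 3 had negative fold changes, and no other tool was run. The median over the 9 genes was -0.56, beside -0.29 over all tested genes, of which 71.9% had a negative value. Only Fst kept RE and KD apart, as did 14.3% of all tested genes. RE against CON, which shares its libraries with the other comparisons, gave 3 changed genes: Fst was higher and Bmp4 and Bmp5 were lower, 3 of 9 beside 6.33% of all tested genes (2.70% higher and 3.63% lower). The RE and CON libraries of these 3 genes did not overlap, as in 9.22% of all tested genes. The median over the 9 was -0.74, beside -0.27 over all. CON 4 weighs on all 3 comparisons. Without it the changed genes among the 9 were 4 in KD against CON, 3 in RE against KD and 7 in RE against CON, while 20.5%, 23.7% and 52.8% of all tested genes changed.

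Several of the 10 genes followed the order of the libraries in long transcripts. Inhba and Tgfb2, with longest annotated transcripts of 6390 and 5116 bases, each had their 4 lowest values in CON 4, KD 3, RE 1 and RE 3, the 4 libraries lowest in long transcripts. The same held for 18.5% of all tested genes and for 38.9% of the 2269 with the longest transcripts. Grem1 (4148 bases) had its 3 lowest values in RE 3, CON 4 and RE 1. Id3, at 1278 bases, had its 4 highest values in those 4 libraries, as did 2.18% of all tested genes and 8.25% of the 2268 with the shortest (up to 1727 bases). Bmp4 (2064 bases) and Bmp5 (3822 bases) had 3 of those 4 libraries among their 4 lowest values, RE 3, RE 1 and KD 3, and Fst (2833 bases) had CON 4 alone. The share of all tested genes with 3 of the 4 was not counted. Bmp4 and Bmp5 were also lower in KD and RE than in CON as groups, and CON 4 was among the 4 highest values of Bmp4. With the length trend subtracted, CON 4 was still apart from CON 1 to CON 3, at 2.97 against 5.01 to 5.38 for Inhba, 6.82 against 9.26 to 9.40 for Grem1, 2.31 against 3.88 to 4.06 for Bmp5 and 7.76 against 5.95 to 6.10 for Id3 (log2). For Tgfb2 CON 4 was then the highest CON library, at 2.84 against 2.56 and below. The part of RNA quality or cell state in this order was not tested.

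**Figure D3:**
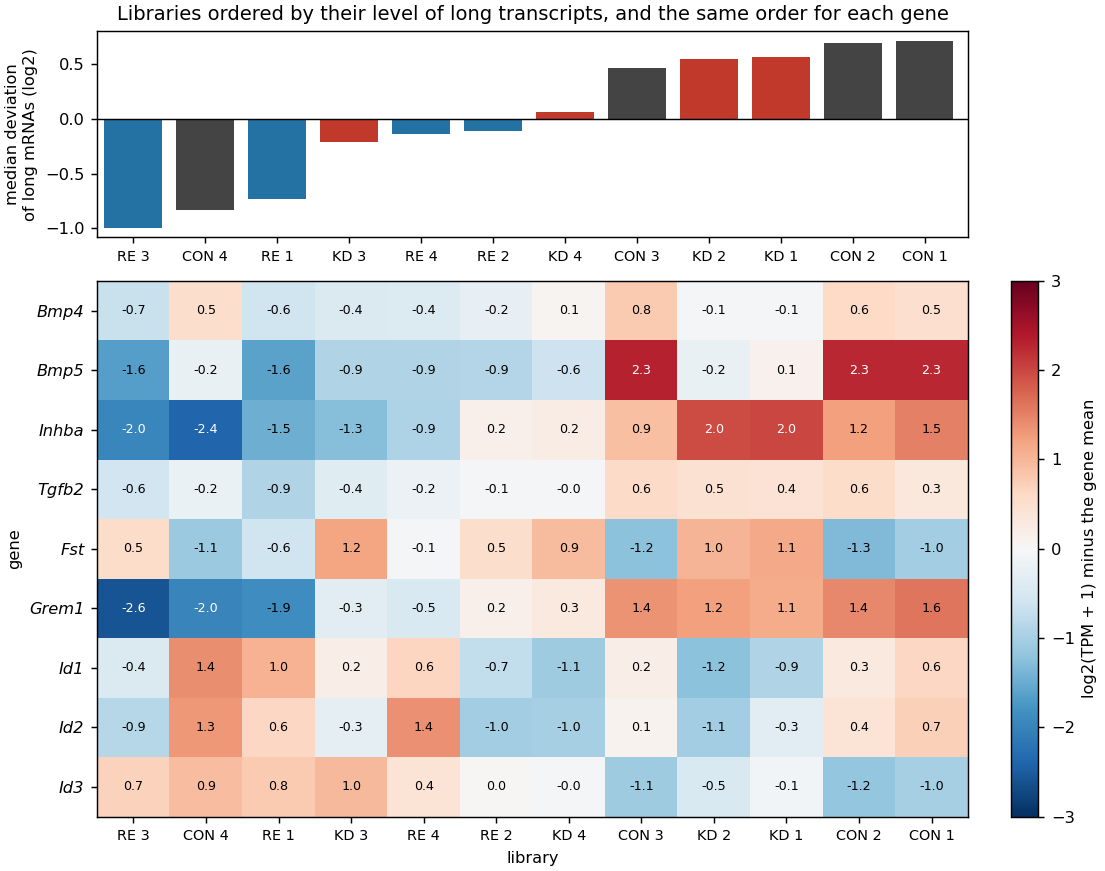
Top, median log2 deviation from the gene mean of the 2269 genes with the longest transcripts in each library, sorted from RE 3 to CON 1 and coloured by group (grey CON, red KD, blue RE). Below, log2(TPM + 1) minus the gene mean for each of the 9 genes in the same order of libraries, where Inhba and Grem1 are low on the left and Id3 is low on the right.

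The other genes of the pathway came from lists by role. Of 13 tested extracellular inhibitors and modulators 3 rose and 0 fell in KD, beside 6.60% and 3.61% of all tested genes. Their median was 0.33. Chrdl1, for the BMP-binding protein chordin-like 1, went from 1.14 ± 0.345 to 4.67 ± 0.786 TPM (1.41 ± 0.22, adjusted p = 0.00121). Fstl3, for a follistatin-like protein that binds activin, went from 13.6 to 23.4 TPM (0.76 ± 0.19, adjusted p = 0.0214), and Fstl1, the most abundant of the list at a mean of 473 TPM, from 377 to 610 TPM (0.72 ± 0.19, 0.0344). The Fstl3 call was lost with median-of-ratios scaling (adjusted p = 0.102), with quantile normalization (0.0864) and on leaving out any of CON 1, CON 2, CON 3, KD 1 and KD 4 (at most 0.0768, for CON 3). The Fstl1 call was lost without CON 1, CON 3 or any 1 KD library (up to 0.101 without KD 2). In RE against CON Fstl3 was higher (0.80 ± 0.19, adjusted p = 0.0241) and Chrd, for the BMP inhibitor chordin, lower (-0.77 ± 0.19, 0.0282). Both of these were lost in several alternatives, the adjusted p reaching 0.109 for Fstl3 in the fit of CON and RE alone and 0.324 for Chrd with the length trend subtracted. Chrd had a mean of 1.03 TPM over the 12 libraries and passed the 1 TPM minimum only through CON (1.62, against 0.533 in RE). The BMP inhibitor gene Nog was listed at 0 in all libraries.

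Among 14 tested receptors and co-receptors 1 rose in KD and 0 fell, beside 6.60% and 3.61% of all tested genes. This was Acvrl1, for ALK1, a type I receptor known from endothelium. It stood at 0.678, 0.166, 0.242 and 0.854 TPM in CON, 3.80, 4.45, 5.73 and 3.58 TPM in KD, and 3.61, 6.78, 7.07 and 4.84 TPM in RE. KD and RE lay above every CON library and overlapped each other, with log2 fold changes of 1.87 ± 0.24 (adjusted p = 0.000343) and 2.14 ± 0.24 (0.000135) against CON. The CON mean of Acvrl1, 0.485 TPM, was below the 1 TPM minimum, which the gene passed through KD and RE. The 5 endothelial markers summed to 0.0991 to 0.746 TPM in CON, 0.133 to 0.357 in KD and 0.113 to 0.466 in RE, and none had a mean of 1 TPM. The most abundant receptor gene was Acvr1, for the BMP receptor ALK2, at 92.9 ± 36.5 TPM in CON and 89.5 ± 15.4 in KD (0.05 ± 0.38, adjusted p = 0.969).

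Of 7 other tested ligands 0 changed in KD against CON in limma, where 10.2% of all tested genes did. Beside 2803 of all 11774 tested genes, 3 of the 7 ligands had an unadjusted p below 0.05. Tgfb1, the most abundant, stood at 89.2 ± 6.08 TPM in CON, 83.7 ± 9.10 in KD and 85.1 ± 8.22 in RE. Inhbb, for the subunit of activin B, was the only gene of the pathway lists that changed in RE against KD. Its values were 19.7, 20.5, 20.1 and 14.1 TPM in CON, 21.2, 22.7, 14.5 and 19.3 TPM in KD, and 3.57, 11.5, 5.57 and 5.32 TPM in RE, with every RE library below all others. The log2 fold change was -1.53 ± 0.28 (adjusted p = 0.0344) against KD and -1.48 ± 0.28 (0.00762) against CON. The call against KD was lost in 12 of 23 alternatives, the highest adjusted p being 0.157 on leaving out KD 2. These were the fits without CON 1, CON 2, CON 3, KD 1, KD 2, KD 4 or any 1 RE library other than RE 2, and 3 others. Inha, the inhibin alpha gene, was higher in RE than in CON (0.465 to 1.48 TPM, 0.74 ± 0.18, adjusted p = 0.0307). That call was lost in 8 of 20 alternatives, with up to 0.113 without CON 3. Inha had a mean of 1.01 TPM over the 12 libraries and passed the 1 TPM minimum only through KD (1.09) and RE (1.48).

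Inside the cell, 0 of 5 tested Smad genes changed in any of the 3 comparisons, and 0 had an unadjusted p below 0.05 in limma. Of all 11774 tested genes 10.2% changed in KD against CON, 1.04% in RE against KD and 6.33% in RE against CON. An unadjusted p below 0.05 was found for 2803, 3298 and 3342 of them. Smad4, the shared Smad, was the most abundant at 48.9 ± 21.8 TPM in CON and 39.3 ± 9.53 in KD (-0.17 ± 0.40, adjusted p = 0.878). Of 8 intracellular inhibitors 1 rose in KD, beside 6.60% of all tested genes. This was Smad6, which blocks BMP receptor signalling and is itself induced by BMPs. It went from 1.996 ± 0.319 TPM in CON to 4.92 ± 0.926 in KD (0.97 ± 0.18, adjusted p = 0.00415) and stood at 3.14 ± 0.565 in RE. Tgif1, a Smad corepressor gene and the most abundant of that list, was at 169 ± 26.8 TPM in CON and 154 ± 5.80 in KD (adjusted p = 0.695).

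Of 7 other tested target genes 1 rose in KD and 0 fell, beside 6.60% and 3.61% of all tested genes. Atoh8, a BMP-induced bHLH gene, rose from 6.32 to 11.5 TPM in KD (0.79 ± 0.18, adjusted p = 0.0148), a call lost under both scalings (0.0914 and 0.141) and without CON 1, CON 2, CON 3 or KD 1 (up to 0.0553). Ctgf was higher in RE than in CON (23.6 to 85.0 TPM, 1.72 ± 0.38, adjusted p = 0.0162), which was lost without CON 1, CON 2, CON 3 or RE 1 (up to 0.0596). Cdkn1a, for the cell cycle inhibitor p21, was the most abundant target at 407 ± 24.3 TPM in CON and 426 ± 59.1 in KD (adjusted p = 0.926). The 3 E protein genes gave 0 changes in limma in each comparison, with 0 at an unadjusted p below 0.05 in KD against CON, 1 in RE against KD and 2 in RE against CON. Of all 11774 tested genes 10.2%, 1.04% and 6.33% changed in these comparisons. An unadjusted p below 0.05 was found for 2803, 3298 and 3342 of them. Tcf3, the most abundant of the 3 E protein genes over the 12 libraries together, had means of 60.7 TPM in CON and 59.6 in KD. Tcf12 was above it in CON at 80.3 ± 43.4 TPM (SD, n = 4).

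**Figure D4:**
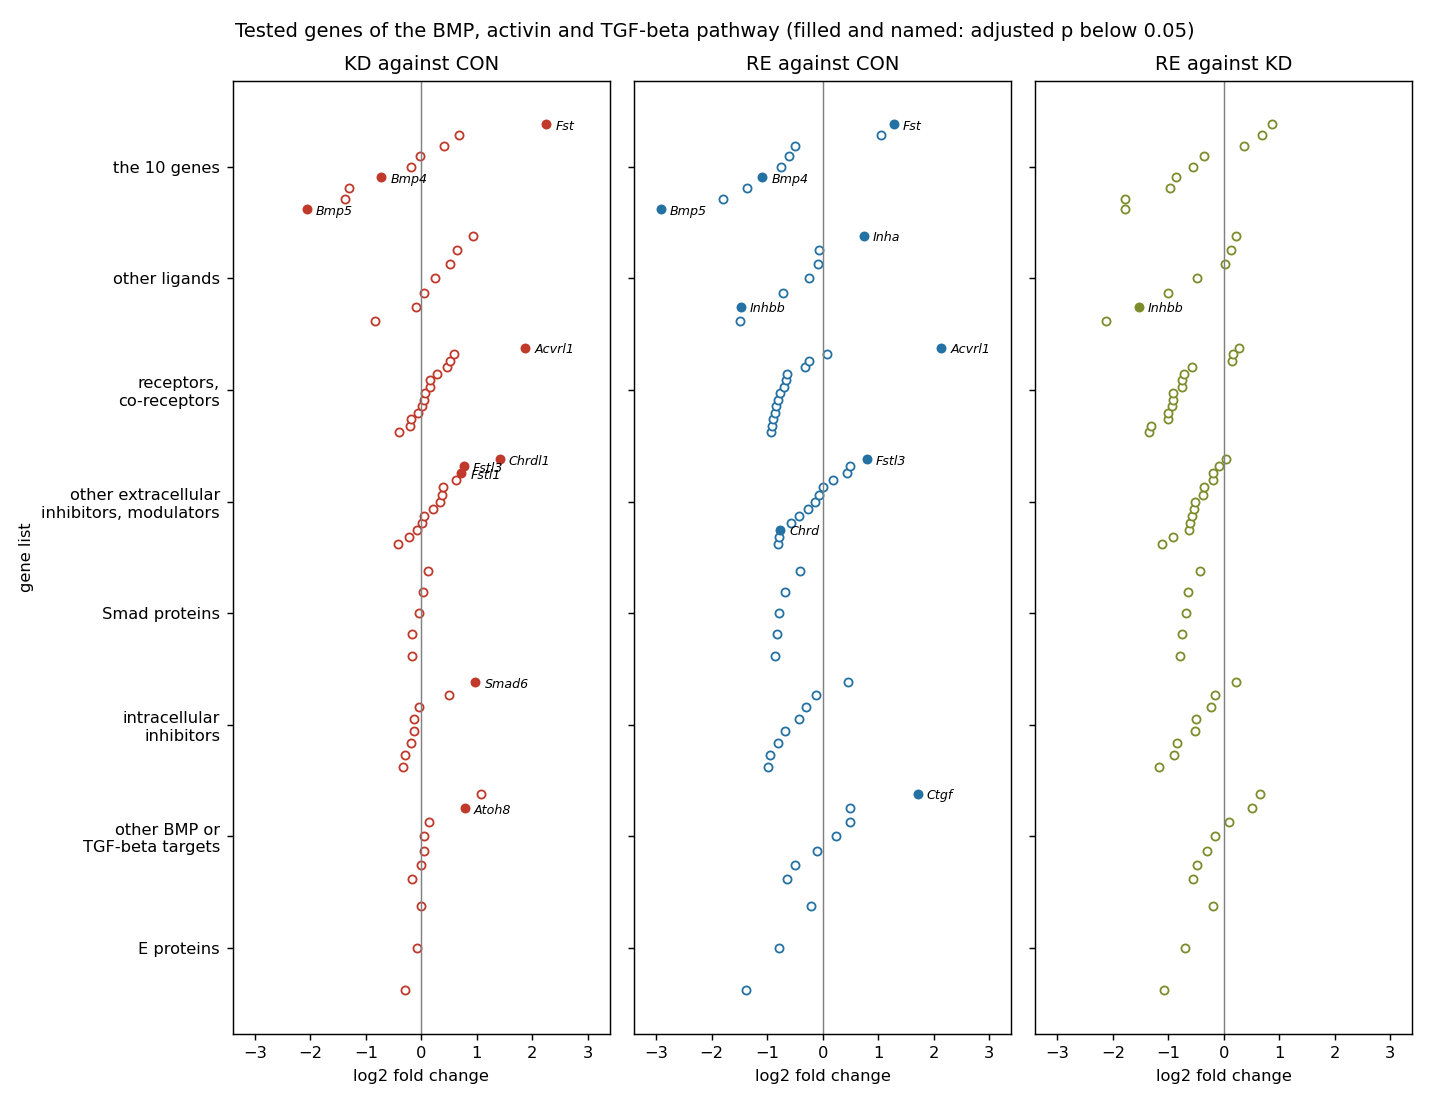
Log2 fold change of the reported tested genes of the BMP, activin and TGF-beta lists in the 3 comparisons, 1 point a gene in rows by list; filled and named points have an adjusted p below 0.05. In KD against CON the named points of the receptor, inhibitor and target lists are to the right of 0 and Bmp4 and Bmp5 to the left, and in RE against KD only Inhbb is named.

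Markers of other cell types also differed between the groups. Of all tested genes 6.60% were higher and 3.61% lower in KD against CON, and 2.70% and 3.63% in RE against CON. Of 5 tested skeletal muscle markers 4 (Acta1, Chrna1, Myf5 and Myod1) were lower in KD than in CON. In RE against CON 3 were lower (Acta1, Chrna1 and Myod1). Myod1 stood at 6.35 TPM in CON, 0.0313 in KD and 0.0333 in RE, and Acta1 at 3.33, 0.340 and 0.645. Both passed the 1 TPM minimum only through CON, the group where they were high. The 7 listed genes summed to 362 to 653 TPM in CON, 292 to 389 in KD and 330 to 549 in RE. Des (mean 382 TPM), not called changed, made up most of these sums. Of 6 tested fibroblast markers 2 were lower in KD and 4 lower in RE than in CON. In RE against KD 2 (Col1a1 and Col1a2) were lower, beside 0.858% of all tested genes. The 9 listed sum to 2752 to 4265 TPM in CON, 2953 to 4252 in KD and 1560 to 2525 in RE, with Lum and Tcf21 listed at 0 throughout. Col3a1 (mean 2494 TPM) made up most of these sums. Smooth muscle markers (4) sum to 493 to 1087 TPM in CON, 699 to 1120.2 in KD and 277 to 1482 in RE. Acta2 (mean 811 TPM) made up most of these sums. In limma 0 of 3 tested changed in any comparison, beside 1.04% of all tested genes in RE against KD. At an unadjusted p below 0.05 there was 1 in each of KD against CON and RE against KD, beside 2803 and 3298 of all 11774. Macrophage and leukocyte markers (5) sum to 134 to 181 TPM in CON, 213 to 244 in KD and 168 to 257 in RE. Most of these sums was Cd14 (mean 189 TPM), 1 of the 2 tested, which was higher in KD than in CON. Adgre1 was listed at 0, and Ptprc and Csf1r had means of 0.00362 and 0.329 TPM. The part of cell types in the differences of Bmp4, Bmp5 and Fst was not tested.

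The genes most like the 3 changed genes over the 12 libraries were found by the Pearson correlation of log2(TPM + 1) among 9624 genes. Libraries of a group share their treatment, so r mostly restates the group levels. For Fst they were Lmod1 for leiomodin 1 (r = 0.980), Serpina3g (0.979) and Pdgfrl (0.979). Pdgfrl stood at 22.8 ± 2.81 TPM in CON, 111.2 ± 5.73 in KD and 62.6 ± 12.3 in RE. Serpina3g belongs to a cluster of close copies, so its value is uncertain. For Bmp4 they were Cd34 (0.968), Baiap2l1 (0.966) and Scamp5 (0.966), and Cd34, for a sialomucin of progenitor and endothelial cells, went from 137 ± 12.4 TPM in CON to 54.7 ± 4.37 in KD and 37.1 ± 9.89 in RE. For Bmp5 they were Tmtc4 (0.986), Ezr for the cytoskeletal linker ezrin (0.986) and Dpysl3 (0.984).

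On GRCm38 (GENCODE M21) Bmp2 lies on chromosome 2 from 133552159 to 133562885, Bmp4 on chromosome 14 from 46383520 to 46390669, Bmp5 on chromosome 9 from 75775364 to 75900310, Fst on chromosome 13 from 114452290 to 114458951, Inhba on chromosome 13 from 16011851 to 16031621 and Grem1 on chromosome 2 from 113746164 to 113758646. Id1 lies on chromosome 2 from 152736251 to 152737410, Id2 on chromosome 12 from 25093799 to 25097140, Id3 on chromosome 4 from 136143497 to 136145755, and Tgfb2 on chromosome 1 from 186622792 to 186705989. Bmp2, Grem1, Id1, Id2 and Id3 overlap no other gene there. Bmp4, Bmp5, Inhba, Fst and Tgfb2 overlap gene models on the other strand, of which Gm15217 at Bmp4 has a mean of 0.298 TPM. Bmp5 also overlaps Gm47723 on its own strand. The sources used here do not state whether counting used strand.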

How the data were processed

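The authors deposited TPM values for 23184 gene symbols in 12 libraries. Per the submitters' processing notes, reads were handled with Trim Galore 0.6.6, TopHat2 2.1.1 and Cufflinks 2.2.1 on mm10. The sources used here do not state how these led to TPM. TPM hold no depth, so no counting interval is given. The 4 control columns are named WT and were taken as the CON group through the genotype label, so that CON 1 to CON 4 are the numbers of these columns. Nothing says that replicates are separate cultures, so p-values measure the spread between these libraries, which may be technical.

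From the TPM, log2(TPM + 1) of the 11774 genes with a mean of at least 1 TPM entered 1 limma 3.58.1 fit (R 4.3.3) with a mean per group over all 12 libraries, a mean-variance trend and two-sided moderated tests. Every adjusted p is from this fit or, for a named alternative, its refit, with Benjamini-Hochberg adjustment over all tested genes per comparison. Alternatives were a pseudocount of 0.1, no TPM minimum or 5 TPM, median-of-ratios or quantile scaling, robust moderation, a subtracted length trend, the compared groups alone, a replicate block (KD and RE) and leaving out libraries. The script was tested on simulated data. Transcript length is the longest GENCODE M21 basic transcript, known for 96.3% of tested genes. The length trend is a loess curve (span 0.5) of deviations from the gene mean.

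The 10 genes, lists and alternatives were chosen with earlier results of these data known. Named genes are the 10, Wdr62, up to 4 changed genes and the most abundant gene of each list, and the 3 genes most like each changed gene (mean of at least 5 TPM, single symbol, no predicted or clone name). A gene of the target list is not reported here and is left out of that list's counts.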

Additional observations from a re-analysis of the deposited data

Results flagged for a closer look

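In 4 cases a value stood apart from the rest of its group of 4 by a gap test (Dixon, 95% level, on log2 values) among 30 gene and group pairs examined, of which chance flags about 1 in 20. All are in CON 4: Bmp5 at 2.46 TPM, Inhba at 3.51 TPM, Grem1 at 75.1 TPM and Id3 at 242 TPM. The other CON libraries were at 18.3 to 19.0, 42.8 to 65.8, 762 to 912 and 56.4 to 62.9 TPM. CON 4 also had the second lowest level of long transcripts, and the part of this in the 4 values was not tested.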

How the results depend on the processing

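The count of changed genes among the 9 was 3 in KD against CON, 0 in RE against KD and 3 in RE against CON. It became 5, 0 and 5 without CON 4, RE 1 and RE 3, where 39.4%, 0.425% and 32.1% of all tested genes changed. Leaving out single libraries gave 2 to 4, 0 to 3 and 3 to 7, with the 3 in RE against KD and the 7 in RE against CON both without CON 4, and 1 in RE against KD without RE 2. Numbers of KD and RE libraries did not pair them: the correlation of deviations from the group means was -0.55 for number 1, 0.65 for number 2, 0.24 for number 3 and -0.25 for number 4. With the replicate block for KD and RE the count was 3 (Inhba, Fst and Grem1, adjusted p = 0.0322, 0.0350 and 0.0320), beside 17.2% (2021) of all tested genes, and 0 when the length trend was also subtracted, beside 7 of 11339 genes. No paired analysis was possible for comparisons with CON because the numbers of its WT columns could not be tied to the numbered CON samples. Over the alternatives the share of all tested genes that changed ran from 6.32% to 39.4% in KD against CON, from 0.0617% to 23.7% in RE against KD and from 3.47% to 52.8% in RE against CON. Median-of-ratios scaling moved the median of all genes by 0.30 in RE against KD and by 0.28 in RE against CON. Of the 582 single values of the 9 genes under alternatives, 554 kept their side of the threshold, 21 passed it newly and 7 (all Bmp5 in KD against CON) no longer passed. Depth is unknown and its limits were not measured.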

Other observations

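The ratio of Id1 to Id3 TPM within a library, chosen after the values were seen and therefore not tested, was 3.04, 2.70, 2.37 and 1.34 in CON, 0.548, 0.568, 0.570 and 0.471 in KD, and 1.18, 0.567, 0.445 and 1.15 in RE. It kept CON apart from both other groups, CON 4 included, and RE 1 and RE 4 lay above all KD libraries.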
